A study of Homo sapiens with 2 samples.

Results

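The DEAD and DEAH box RNA helicases were examined in untreated HEK293T cells of WT genotype, the only group of the series, with 2 RNA-seq libraries. Members were the genes whose symbol is DDX or DHX followed by a number and at most 1 letter, leaving out the RNA sensor gene DDX58. The rule found 56 of the 60664 genes in the files, 40 named DDX and 16 named DHX, and 54 of them are protein-coding. HEK293T is a widely used human cell line of embryonic kidney origin that carries adenovirus sequence and expresses the large T antigen of SV40, and the series title names a method for R-loop mapping. The cell line entry of replicate 2 reads HEK294T, and its title, which reads HEK293T, was followed.

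These helicases use ATP to part short RNA duplexes or to strip proteins from RNA. They are named after the amino acid letters of a box in the helicase core that binds and hydrolyses ATP. DEAD box members act locally on short duplexes, whereas DEAH box members move along a strand, and both kinds serve at most steps of RNA life, from transcription and splicing to export, translation and decay. Several are known to resolve RNA-DNA hybrids.

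Libraries were primed with oligo(dT), so RNAs with a poly(A) tail were favoured. Replicate 1 had 18011638 assigned counts and replicate 2 had 18575058. Levels are given as CPM, counts scaled to the library total, and as TPM, which also divides by exon length. The ± values are SDs between the libraries (n = 2). Whether they came from separate cultures is not stated in the labels, so the spread may be technical. In bulk RNA, fewer cells expressing a gene and less RNA per cell cannot be told apart. A count of 0 allows up to 3 counts, or 0.167 CPM in replicate 1 and 0.162 CPM in replicate 2. Of the markers checked for the label, 1 of 8 kidney tubule genes and 4 of 4 nephron progenitor genes reached 1 CPM in both libraries. So did 4 of 6 neuronal genes, 2 of 5 blood genes and 1 of 8 germ cell genes. Among all protein-coding genes the share was 65.9%. The neuronal share of 66.7% was near it and says nothing particular about the cells. Kidney tubule markers had a median of 0.0227 TPM, and AQP2, SLC12A3 and UMOD had 0 counts.

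The box was located in the coding sequence of each protein-coding member in GENCODE 29 (build GRCh38), and it is shown here because the family is named after it. In the following stretches of 42 bases, read 5′ to 3′ along the coding strand, capitals mark the 12 bases of the box. DDX5 and DDX17 have the box of the name, DDX39B and DDX39A a DECD box, DDX21 and DDX50 a DEVD box, DHX15 the DEAH box and DHX9 a DEIH box.
DDX5: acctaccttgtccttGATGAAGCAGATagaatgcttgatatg
DDX17: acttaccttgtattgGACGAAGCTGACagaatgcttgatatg
DDX39B: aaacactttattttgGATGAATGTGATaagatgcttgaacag
DDX39A: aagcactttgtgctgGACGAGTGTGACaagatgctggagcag
DDX21: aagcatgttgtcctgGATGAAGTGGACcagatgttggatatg
DDX50: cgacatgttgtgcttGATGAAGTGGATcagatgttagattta
DHX15: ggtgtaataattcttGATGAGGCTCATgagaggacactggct
DHX9: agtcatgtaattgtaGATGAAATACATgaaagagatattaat

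The boxes lie in exon 7 of DDX5 (chr17:64503245-64503256, minus strand), exon 7 of DDX17 (chr22:38494943-38494954, minus), exon 5 of DDX39B (chr6:31536519-31536530, minus) and exon 5 of DDX39A (chr19:14411008-14411019, minus). Those of DDX21 (chr10:68967128-68967139, plus) and DDX50 (chr10:68913501-68913512, plus) are both in exon 6 of neighbouring genes. The DHX15 box is in exon 4 (chr4:24556323-24556334, minus) and the DHX9 box in exon 14 (chr1:182867017-182867028, plus).

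A box was found in 53 of the 54 coding sequences, and the gene's name did not always match its spelling. Of the DDX members, 30 encode DEAD, 2 DECD, 2 DEVD and 1 DESD (DDX52), while DDX11 encodes DEAH and DDX60 and DDX60L encode DEVH. Of the DHX members, 8 encode DEAH, 4 DEVH, 2 DEIH (DHX9 and DHX36) and 1 DECH (DHX58). No box matched the search in DHX32, a relative of DHX15. The DEAD box was written with 11 different codon combinations. The 35 members whose box ends in aspartate had a median of 21.1 TPM and the 18 whose box ends in histidine 9.06 TPM, a description with no test.

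Most of the family was expressed, and the members fell into a large expressed set and a small set near 0. In all, 49 of 56 members reached 1 CPM in both libraries, against 65.9% of protein-coding genes and 27.7% of all genes in the files. The median over all 56 members was 17.9 TPM (18.1 in replicate 1 and 16.9 in replicate 2), against 2.88 TPM over all 19890 protein-coding genes. Between the lowest of 48 expressed members, DDX6 at 4.79 TPM, and the highest of the other 8, DHX58 at 0.558 TPM, there was no member, while 23.6% of protein-coding genes lay between these levels. This gap was noticed after the values were seen. The low 8 were the 3 members of the antiviral list, the 4 of the germline and testis list and DDX3Y. The lists were chosen with earlier results of these data known, so this match may be built in. Of the low 8 only DDX60 passed 1 CPM in both libraries.

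**Figure D1:**
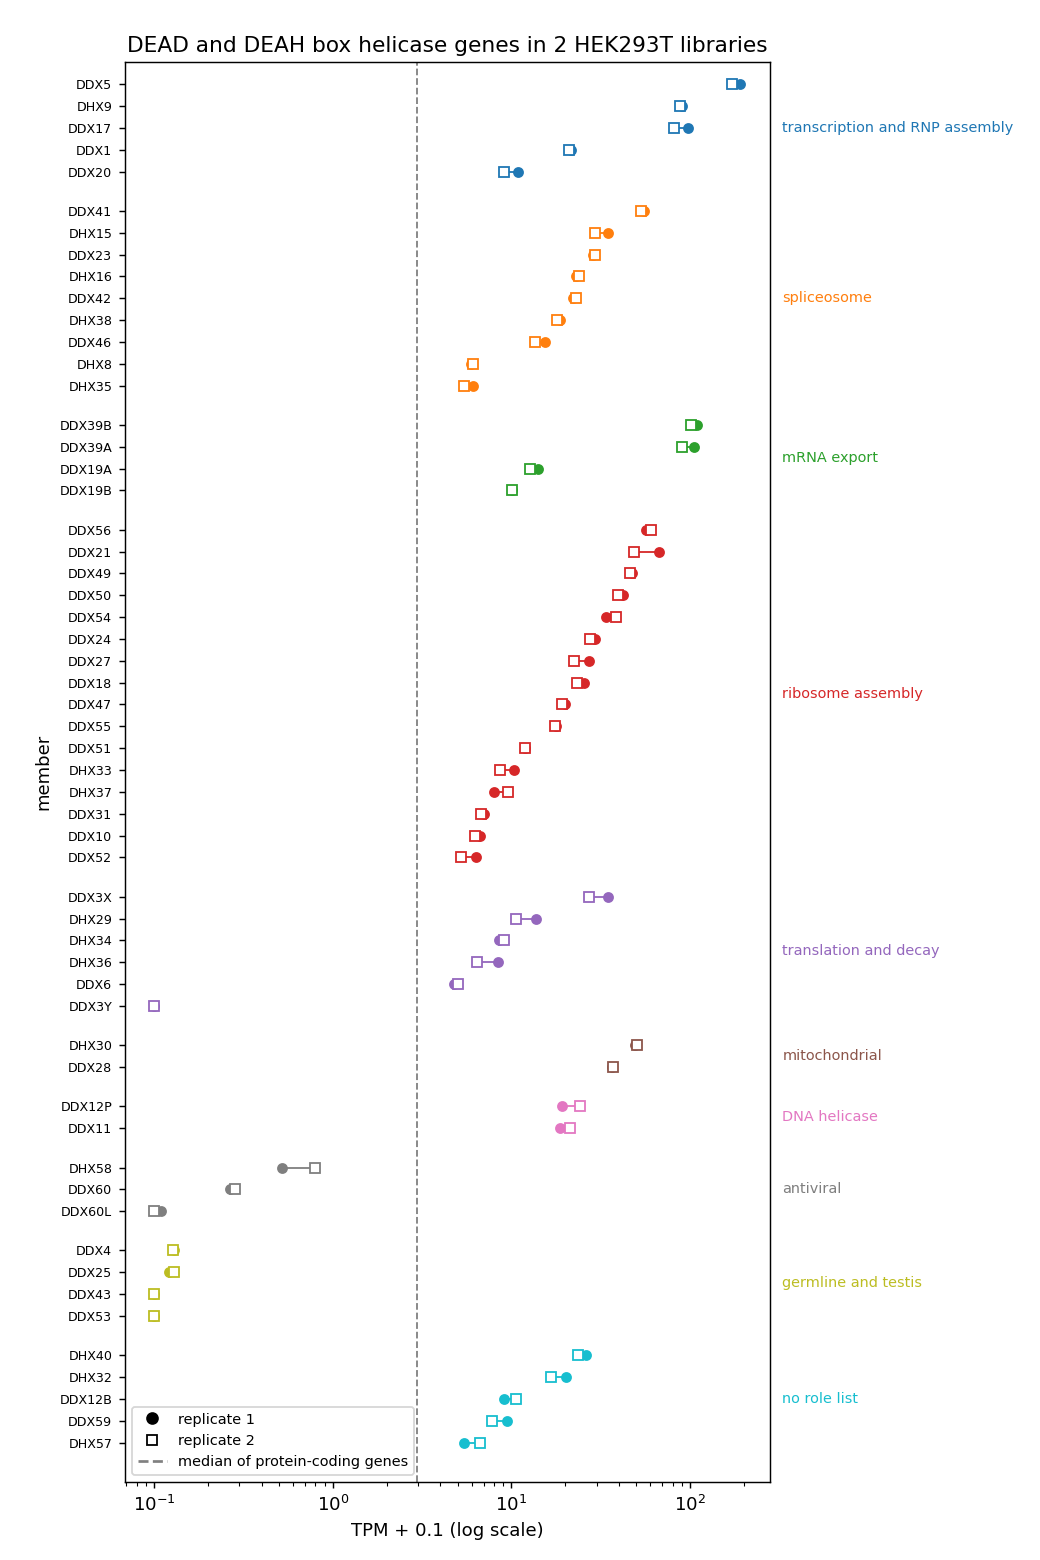
Level of each of the 56 members as TPM + 0.1 on a log axis, grouped by role, with filled circles for replicate 1, open squares for replicate 2 and a dashed line at the median of protein-coding genes. The 48 expressed members lie right of the line, from DDX6 at 4.79 TPM to DDX5 at 181 TPM, and the other 8 lie left of it.

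**Figure D2:**
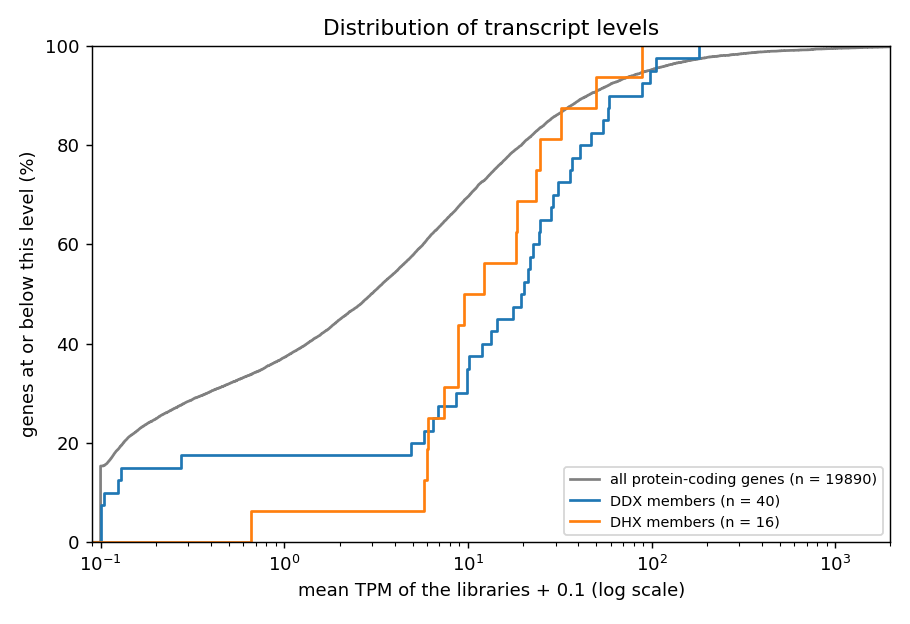
Share of genes at or below each level of mean TPM + 0.1 on a log axis, for all protein-coding genes in grey, DDX members in blue and DHX members in orange. The DDX curve is flat between its low members and 4.79 TPM, and the DHX curve lies left of the DDX curve over most of the expressed range, with medians of 10.7 and 19.7 TPM.

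The 56 genes took 88681 counts in replicate 1, or 0.492% of the library (exact 95% binomial interval 0.489% to 0.496%), and 87620 in replicate 2, or 0.472% (0.469% to 0.475%). The intervals cover counting error only. They may be too narrow even for that, because PCR copies of 1 molecule and reads in overlapping genes may be counted more than once. DDX5 alone held 17.3% ± 0.297 of the family's counts, and the 5 most counted members, DDX5, DDX17, DDX39B, DHX9 and DDX3X, held 44.3% ± 1.23. DDX members held 79.1% ± 0.52 and DHX members 20.9% ± 0.52. Among the 34 DDX and 15 DHX members that passed 1 CPM the medians were 22.1 and 12.1 TPM.

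Members of transcription and RNA-protein assembly held the largest share of the family's counts of any role group, 34.9% ± 0.655. All 5 were expressed, at a median of 88.9 TPM against 55.7 TPM for the mRNA export group, but by longest coding transcript the export median was the higher, at 101.8 against 86.2 TPM. DDX5, a transcription cofactor that also serves microRNA processing, lies at chr17:64498254-64508199 and had 15511 counts in replicate 1 and 14957 in replicate 2 (191 and 171 TPM). Its mean level was above that of 97.4% of protein-coding genes. DDX17, its close relative with shared functions, had 8449 and 7600 counts (96.9 and 80.9 TPM). DHX9, which unwinds double-stranded RNA and RNA-DNA hybrids, had 4646 and 4852 counts (90.3 and 87.6 TPM), so its values overlapped those of DDX17. DDX1, a subunit of the tRNA ligase complex, was lower, at 21.4 and 20.8 TPM. DDX20, the Gemin3 protein of the SMN complex that assembles spliceosomal snRNPs, was lowest in both libraries, at 10.7 and 8.97 TPM.

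The helicases of the spliceosome act in a set order, and all 9 were expressed at a median of 22.5 TPM. DDX46, which helps the U2 snRNP join the branch site, had 1227 and 1157 counts (15.3 and 13.4 TPM), and DDX42, another U2 partner, had 1641 and 1841 (22.1 and 23 TPM). DDX23, which frees the 5′ splice site from U1, had 1343 and 1500 counts (28.4 and 29.4 TPM). DHX16, which activates the assembled spliceosome, stood at 23.3 ± 0.506 TPM, and DHX38, needed for the second step, at 18.3 ± 0.488 TPM. DHX8, which releases the spliced mRNA, was low at 5.81 and 6 TPM, while DHX15, which takes the spliceosome apart, was high at 34.6 and 29.2 TPM. The 2 ends of the group, which were picked by these same levels, did not overlap. DDX41, bound late in splicing and mutated in familial myeloid neoplasms, led with 55.3 and 53.2 TPM, and DHX35, found in the catalytic spliceosome, closed the group with 6.01 and 5.35 TPM.

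Among the 4 export members the nuclear pair was far above the pore pair. DDX39B loads export factors onto mRNA, and its gene at chr6:31530219-31542448 had 6709 and 6654 counts (110 and 101 TPM). DDX39A, a paralogue with 80% identical coding bases, had 3561 and 3279 counts (106 and 90.4 TPM). The ranges of the pair overlapped in TPM, and the difference of 0.11 ± 0.08 on the log2(TPM + 0.1) scale became 0.97 without length correction. Other genes overlap 30.8% of the exonic bases of DDX39B, mostly with the read-through gene ATP6V1G2-DDX39B, which had 5154 and 4755 counts, so its value is uncertain. DDX19A and DDX19B, which strip proteins from mRNA at the cytoplasmic face of the nuclear pore, had 13.9 and 12.7 TPM, and 10.04 and 10.04 TPM, respectively. These 2 genes have 93.7% identical coding bases and lie close together on chromosome 16. Of their 50-base words in the annotated transcripts, 9.94% for DDX19A and 14.9% for DDX19B also occur in other genes, with the other copy leading in each case. Other genes overlap 27% of the exonic bases of DDX19A, so the split between them is uncertain.

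Ribosome assembly formed the largest role group, and all 16 members were expressed, at a median of 21.8 TPM and between 5.67 and 58.3 TPM. These proteins remodel pre-ribosomal RNA in the nucleolus. DDX56 had the highest mean TPM of the group, with 1816 and 2079 counts (56.6 and 60.1 TPM). DDX21, which also acts in RNA polymerase I and II transcription, had 2920 and 2259 counts (67.3 and 48.4 TPM). Its TPM range enclosed that of DDX56, while its counts were higher in both libraries. DDX50, the neighbouring gene and paralogue of DDX21 with 69% identical coding bases, had 985 and 987 counts (42.1 and 39.2 TPM), below DDX21 in both libraries. DDX49 (46.7 ± 0.748 TPM), DDX54 (35.9 ± 3.36), DDX24 (28.3 ± 1.18), DDX27 (24.7 ± 3.2) and DDX18 (24.3 ± 1.6) followed. DDX47 had 19.4 ± 0.49 TPM, but the gene APOLD1 overlaps 36.5% of its exonic bases. APOLD1 was assigned 990 and 1029 counts, which may include reads shared with DDX47. The value of DDX47 is therefore uncertain. DDX55 (17.5 TPM), DDX51 (11.8), DHX33 (9.38), DHX37 (8.72) and DDX31 (6.79) were lower. DDX10 and DDX52, which work on the small subunit, closed the group at 6.37 ± 0.298 and 5.67 ± 0.797 TPM.

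Of the 6 helicases of translation and decay, 5 were expressed, and the median was 8.02 TPM. DDX3X, which helps translate mRNAs with structured leaders, had 4766 and 4020 counts (34.5 and 27 TPM). DDX3Y, its copy on the Y chromosome with 87.1% identical coding bases, had 0 counts in both libraries. Against the 3 counts per library that a count of 0 allows, DDX3X was at least 574-fold higher in TPM in replicate 1. In replicate 2 it was at least 484-fold higher. Whether these cells carry a Y chromosome was not tested. DHX29, a scanning factor of the small ribosomal subunit, had 13.7 and 10.5 TPM, and DHX34, of nonsense-mediated decay, 8.46 and 9.01 TPM. DHX36, which unfolds G-quadruplexes, had 8.27 and 6.36 TPM. DDX6, which represses translation and promotes mRNA decay in processing bodies, had 467 and 528 counts (4.67 and 4.9 TPM) and was the lowest expressed member by TPM. Its deposited exon length of 11462 bases is among the longest, and by CPM it ranked 38 of 56.

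Both mitochondrial members, which assemble the mitochondrial ribosome, were well expressed. DHX30 had 3319 and 3655 counts (49.1 and 50.2 TPM), and DDX28 had 735 and 801 (36.4 and 36.8 TPM). DHX30 was above DDX28 in both libraries.

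DDX11, a DNA helicase of sister chromatid cohesion, cannot be separated with confidence from its copies on chromosome 12. The pseudogenes DDX12P and DDX12B also satisfied the name rule. Their transcripts repeat the box stretch of DDX11, which lies in exon 10 at chr12:31091806-31091817 on the plus strand, without a mismatch, as the following lines show to explain why their reads can be confused.
DDX11: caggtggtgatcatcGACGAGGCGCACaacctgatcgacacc
DDX12P: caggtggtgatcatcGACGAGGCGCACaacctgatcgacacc
DDX12B: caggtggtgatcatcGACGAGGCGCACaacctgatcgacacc

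DDX11 had 1366 and 1675 counts, DDX12P 494 and 668, and DDX12B 248 and 311. Of the 50-base words in their annotated transcripts, 17.7% for DDX11, 57.7% for DDX12P and 56.3% for DDX12B also occur in other genes elsewhere. In TPM, DDX11 (20 ± 1.83) and DDX12P (21.7 ± 3.47) overlapped. All 3 were higher in replicate 2. Their counts are uncertain as to which copy they came from.

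The 3 members of the antiviral list were near or under the detection limit. Each member was put in 1 role list at most, and DDX58 was left out by the name rule. The list therefore does not speak for every helicase with an antiviral role. DHX58, which tunes signalling by RNA sensors, had 14 and 25 counts (0.42 and 0.696 TPM). DDX60, an interferon-induced gene, had 25 and 30 counts (0.165 and 0.184 TPM), and its neighbour DDX60L had 1 and 0. At these counts a difference between the libraries was not detectable.

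Germline and testis members were not detected. DDX4, the Vasa helicase that marks germ cells, had 1 count in each library, and DDX25, a testis gene of the DDX19 type, had 2 and 3. DDX43 and DDX53, known as cancer-testis antigens, had 0 counts in both. Of the germ cell markers, DAZL had 0 and 1 counts, MAEL 0 and 1, PIWIL1 0 and 1, and MAGEA4 and TEX101 had 0 in both. NANOS3 had 8 and 13 counts, TEX14 21 and 13, and SYCP3 128 and 35.

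Of the other members, which had been put in no role list, DHX40 had 24.7 ± 1.72 TPM, DHX32 18.3 ± 2.57, DDX59 8.52 ± 1.15 and DHX57 5.96 ± 0.91. Of the 50-base words of DHX40, 14.4% occur elsewhere, led by its pseudogene DHX40P1, so its value is uncertain. DHX15 exceeded DHX32 by 0.8 ± 0.03 on the log2(TPM + 0.1) scale, and their coding bases were 56.2% identical.

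The order of the levels was only partly resolved. Of 55 neighbouring pairs in the order by mean TPM, 38 overlapped between the libraries and 17 did not. Ties between members with 0 counts were among the overlapping pairs. The order also depended on the length used. The deposited length merges all annotated exons and ran from 2317 bases for DDX28 to 17337 for DDX60. Using the longest coding transcript instead, DDX5 was at 460 TPM, DDX39B at 241 and DDX1 at 52.9, while DDX21 was at 41.5 TPM and rank 13. DDX5 remained first by TPM, by CPM (833 ± 39.6) and by the longest coding transcript. DDX11 over DDX12P turned from -0.11 in log2(TPM + 0.1) to 1.39 in log2(CPM + 0.1).

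**Figure D3:**
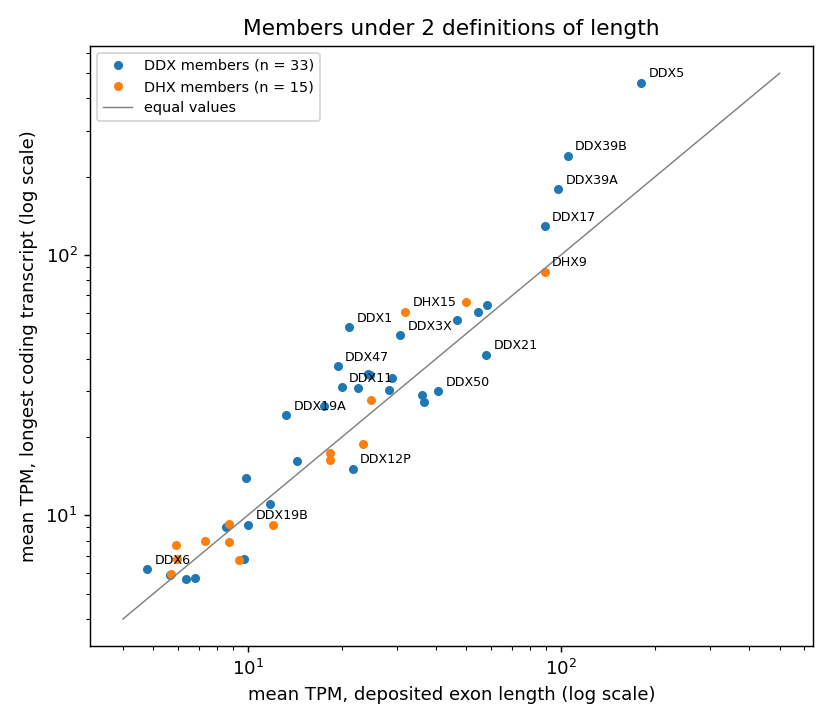
Mean TPM of the 48 expressed members with the deposited exon length (horizontal) and with the longest coding transcript (vertical), both on log axes, DDX in blue and DHX in orange, with a line at equal values. DDX5, DDX1 and DHX15 lie well above the line and DDX21, DDX50 and DDX12P below it. The pseudogenes DDX12P and DDX12B keep the deposited length on both axes, so only the TPM scaling places them below the line. The lengths of DDX21 (4973 and 4829 bases) and DDX50 (2683 and 2538 bases) also differed little between the axes.

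No member differed strongly between the libraries. Ratios are log2 of replicate 2 over replicate 1 after TMM scaling in edgeR, for the 48 members whose mean count reached 50. None of the 48 passed 1 log2, against 1.92% lower and 0.143% higher among 14704 genes with such counts. At shares this small, finding none among 48 members does not set the family apart. The median ratio was 0.03 for the members and 0.000393 for all these genes. Of the 48 members, 38 lay within 0.25 log2, against 62.9% of the genes. The members and the genes were not matched for depth. Every member had a mean count of at least 256.5 (DHX35), while the genes began at 50, so the family cannot be called steadier. DDX21 differed most downward, at -0.38 (95% counting interval -0.46 to -0.30), followed by DHX29 at -0.29, DHX36 at -0.29 and DDX3X at -0.26. Upward, DDX12P had 0.42 (0.25 to 0.59), DHX57 0.40, DHX37 0.36 and DDX12B 0.31. The counting interval lay wholly below 0 for 12 members and wholly above for 10, against 24.6% and 22.4% of all genes, so the counts near these shares say nothing particular about the family. With 1 library on each side there is no replicate check and no p-value.

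GC content moved with these ratios. Among the 16 members with the lowest GC in their longest coding transcript (35.7% to 44%), 13 had a ratio below 0 and the median was -0.13. Among the 16 with the highest GC (52.9% to 61.7%), 1 was below 0 and the median was 0.14. Across the 48 members Pearson's r was 0.609 and Spearman's rho 0.616, and across 14547 genes 0.393 and 0.428, which are descriptions across genes measured in the same libraries. After centring all genes on GC content in 20 bins, the medians of those low and high groups were 0.07 and 0.03, and the order of the members changed. DDX39A (-0.25) and DDX27 (-0.24) were then below DDX21 (-0.23), DDX3X was at -0.14, DHX29 at -0.14 and DHX36 at 0.02. DDX20 turned from -0.16 to 0.28. The centring moved 19 of the 48 ratios by more than their counting error. DHX57, at 44% GC, went from 0.40 to 0.46 and DDX6 from 0.16 to 0.39.

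**Figure D4:**
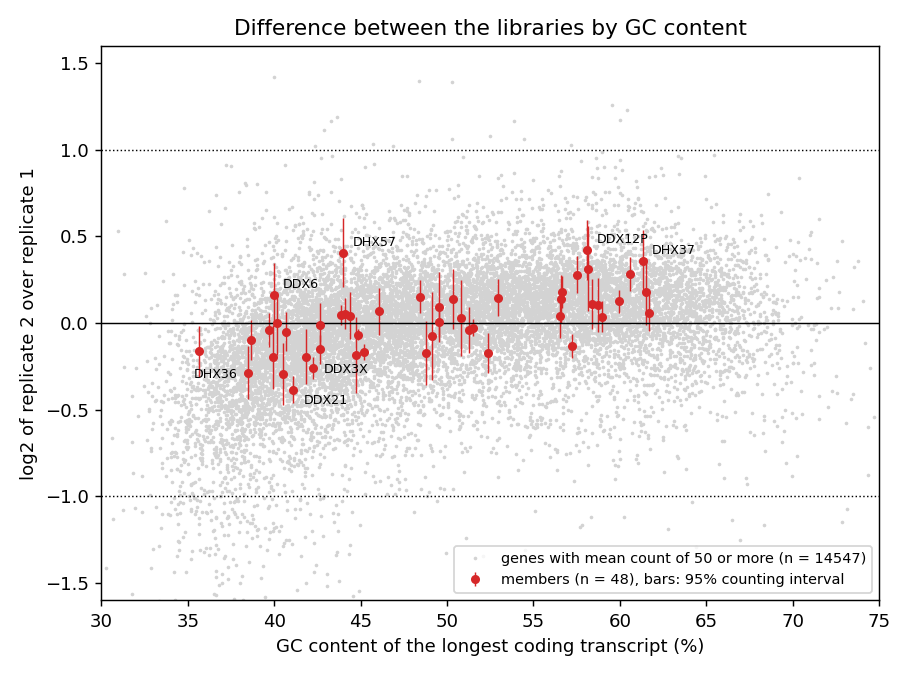
Log2 of replicate 2 over replicate 1 against GC content, for genes whose mean count reached 50 in grey (those beyond the axes are not drawn) and the 48 members in red with 95% counting intervals. Dotted lines mark 1 log2, and all 48 members lie between -0.38 and 0.42.

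Relatives and cofactors were taken from lists beside the name rule. Both lists were chosen with earlier results of these data known. Of 16 related RNA helicases with other names, 15 reached 1 CPM in both libraries, against 65.9% of protein-coding genes. Their median was 12.6 TPM. The translation initiation helicase EIF4A1 had 316 ± 7.02 TPM, above DDX5 in both libraries with the deposited exon length. Without length correction the order was not stable. EIF4A1 had fewer counts than DDX5 in replicate 1 (14576 against 15511) and more in replicate 2 (15213 against 14957). Mean levels were 814 CPM for EIF4A1 and 833 CPM for DDX5. Other genes overlap 47.4% of the exonic bases of EIF4A1. EIF4A2 had 76 ± 2.03 TPM and EIF4A3, of the exon junction complex, 47.3 ± 0.371. At the low end HELZ had 2.07 ± 0.756 TPM and DQX1 0.901 ± 0.0743, and the germline helicase TDRD9 had 0 and 2 counts.

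The 26 cofactors, as 27 gene IDs because PINX1 has 2, were each listed above 1 CPM in both libraries, at a median of 21.5 TPM. Among protein-coding genes 65.9% reached 1 CPM in both. Other genes overlap 98.1% of the exonic bases of GPATCH4 and 100% of those of 1 PINX1 ID, so the counts of these IDs may belong to other genes. RBM8A and MAGOH, which lock EIF4A3 on RNA, had 119 ± 8 and 102 ± 8.17 TPM, and EIF4H, a stimulator of EIF4A, had 101 ± 6.53. Other genes overlap 26.4% of the exonic bases of RBM8A. At the other end were GPATCH1 (5.43 ± 1.65), GPATCH2 (3.33 ± 1.03) and NUP214 (2.95 ± 0.324), the last of these the nuclear pore dock of the DDX19 helicases. GLE1, the activator of these helicases at the pore, had 7.39 ± 0.498 TPM, and CNOT1, the partner of DDX6, had 20.5 ± 0.543, above DDX6 itself in both libraries.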

How the data were processed

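The authors deposited raw, whole-number counts for each Ensembl gene with its exon length, per the file headers. Library steps were DNase treatment, oligo(dT) priming, nuclease digestion, shearing and single-strand ligation, per the labels' protocols. The submitters' processing notes name featureCounts 2.0.3, Trim Galore 0.6.7, bcl2fastq 2.17 and the GRCh38 build. The aligner, the annotation release and how counting treated strand and overlaps were not given in the sources used here. In 523 pairs with counts where a gene lies wholly inside exons of an opposite-strand gene, the inner gene exceeded the outer in 0, so overlapping genes appear to share reads whatever their strand.

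Here CPM and TPM were computed from counts, totals and deposited exon lengths, and ratios with edgeR 4.0.16 (TMM factors 1.01 and 0.989, prior count 2). Symbols matched 60463 IDs. Gene types, transcripts and coding sequences came from GENCODE 29 (58396 IDs). Exon overlap used bedtools 2.31.1. Coding bases were aligned end to end with Biopython 1.88. Detection meant 1 CPM in both libraries. Counting intervals were exact binomial (95%). The ratio step was run on simulated counts that lack the GC trend of these libraries, so that run cannot vouch for the ratios given here. With 1 group, no test was run. Values were given for the ends of each role group, paralogue pairs and members past 1 log2, and for the 3 highest and 3 lowest of the other lists; GLE1, CNOT1, APOLD1 and other single members were named outside this rule after their values were seen. The members, role lists, pairs and alternatives were chosen with earlier results of these data known.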

Additional observations from a re-analysis of the deposited data

How the results depend on the processing

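The share of counts fell from 0.482% to 0.435% without the 3 members overlapped by other genes over at least 25% of their exonic bases. The median level of 17.9 TPM became 44.3 as CPM, which is another unit, 16.9 by longest coding transcript and 20.01 among detected members, and was 16.9 without replicate 1 and 18.1 without replicate 2. Between 46 and 50 members were detected under 6 alternatives, and 0 passed 1 log2 between the libraries under 7. The 46 came from leaving out the 3 overlapped members, which were all detected, and the other alternatives gave 48 to 50. In log2(CPM + 0.1), paralogue differences were 0.97 for DDX39B over DDX39A, 0.93 for DDX5 over DDX17, 11.23 for DDX3X over DDX3Y, 1.22 for DDX19A over DDX19B, 1.38 for DDX21 over DDX50, 3.68 for DDX60 over DDX60L and 1.86 for DHX15 over DHX32. DDX11 over DDX12P reversed to 1.39. By longest coding transcript they were 0.43, 1.83, 8.93, 1.39, 0.45, 2.08 and 1.89 in the same order, and DDX11 over DDX12P reversed to 1.04, with the deposited length kept for DDX12P. These 2 reversals follow from the length used. With a pseudocount of 1 TPM, DDX3X over DDX3Y was 4.98, DDX60 over DDX60L 0.23 and DHX15 over DHX32 0.77. No paired analysis was possible because the labels give 1 group. Depth limits the 8 members with a mean count under 50.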
